A study of Mus musculus with 6 samples.

Results

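A set of 10 genes of glucuronidation were examined in mouse liver: the UDP-glucuronosyltransferases Ugt2a3, Ugt2b1, Ugt2b5, Ugt2b34, Ugt2b35, Ugt2b36, Ugt2b38, Ugt3a1 and Ugt3a2, and Ugdh. The enzyme encoded by Ugdh makes the sugar donor of the family 2 enzymes. They were chosen by symbol: each probe set whose annotation in the array's platform table gives exactly 1 of these 10 symbols was taken. This found 12 probe sets for all 10 genes, out of 18194 genes with such a probe set on the array. Ugt2b34 and Ugt3a1 had 2 probe sets each and the other 8 genes 1 each. Liver RNA of C57BL/6 mice was measured on 6 Affymetrix arrays, 3 per diet. Feeding began at 8 weeks of age and lasted 6 weeks, on either chow (Labdiet 5008) or a ketogenic diet (F3666), which is very rich in fat and poor in carbohydrate. The livers were taken in the morning from animals with free access to food. The labels name no genetic change in either group. Neither the sex of the mice nor pooling of RNA is stated in the sources used here, and the design text speaks of 2 to 3 animals per diet. The p-values therefore reflect the spread among arrays alone, some of which may be technical.

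UDP-glucuronosyltransferases sit in the membrane of the endoplasmic reticulum and attach a sugar from a UDP-sugar to fat-soluble molecules such as bilirubin, steroids, bile acids and drugs, which then leave in bile or urine. The family 2 enzymes use UDP-glucuronic acid, and the Ugt2b enzymes among them are known for conjugating steroids and many drugs. The family 3 enzymes are known from their human counterparts to use other UDP-sugars. UDP-glucuronic acid comes from UDP-glucose through UDP-glucose dehydrogenase, encoded by Ugdh.

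In the RefSeq gene table for assembly GRCm38.p6, the family 2 genes lie together on chromosome 5 in the order Ugt2b34, Ugt2b1, Ugt2b35, Ugt2b36, Ugt2b5, Ugt2b37, Ugt2a3, Ugt2b38, Ugt2a1 and Ugt2a2, and Ugdh lies on the same chromosome outside that run. Ugt3a1 and Ugt3a2 are neighbours on chromosome 15. The stretches just before the start sites of 8 genes, from RefSeq, are shown. Ugt2b38, which fell with the diet, has an upstream sequence closely related to that of Ugt2b5 and, over the last 110 bases, to that of Ugt2b36. Neither Ugt2b5 nor Ugt2b36 passed the test. The transferases and Ugdh also carry different motifs. Each stretch is written 5′ to 3′ on the gene's strand and ends at the last base before the annotated start. Capitals mark matches to GTTA and TTAAC set 4 bases apart, a palindromic form of the site of the hepatocyte factor HNF1, or to TGAC and GC set 3 bases apart, the core of the antioxidant response element to which NRF2 binds. Both were searched on both strands.
Ugt2b38, GRCm38.p6, chr5:87424204-87424313, minus strand: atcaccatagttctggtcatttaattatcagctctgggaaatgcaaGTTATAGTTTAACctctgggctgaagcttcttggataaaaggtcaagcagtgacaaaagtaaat
Ugt2b5, GRCm38.p6, chr5:87140341-87140450, minus strand: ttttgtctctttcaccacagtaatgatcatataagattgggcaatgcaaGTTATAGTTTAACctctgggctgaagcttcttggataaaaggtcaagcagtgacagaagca
Ugt2b36, GRCm38.p6, chr5:87092556-87092665, minus strand: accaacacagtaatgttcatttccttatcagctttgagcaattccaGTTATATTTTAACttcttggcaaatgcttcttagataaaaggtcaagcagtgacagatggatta
Ugt2b1, GRCm38.p6, chr5:86926504-86926613, minus strand: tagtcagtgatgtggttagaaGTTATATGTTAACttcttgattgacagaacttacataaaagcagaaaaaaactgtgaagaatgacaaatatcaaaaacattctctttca
Ugt2b34, GRCm38.p6, chr5:86906938-86907047, minus strand: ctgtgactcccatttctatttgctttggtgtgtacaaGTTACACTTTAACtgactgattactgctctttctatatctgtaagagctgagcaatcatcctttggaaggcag
Ugt2b35, GRCm38.p6, chr5:87000750-87000859, plus strand: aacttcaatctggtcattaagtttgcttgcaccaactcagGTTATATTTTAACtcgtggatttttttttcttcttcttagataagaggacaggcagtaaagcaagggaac
Ugt2a3, GRCm38.p6, chr5:87337196-87337305, minus strand: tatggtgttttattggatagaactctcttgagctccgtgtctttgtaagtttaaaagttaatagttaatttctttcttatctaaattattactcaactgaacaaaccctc
Ugdh, GRCm38.p6, chr5:65435843-65435992, minus strand: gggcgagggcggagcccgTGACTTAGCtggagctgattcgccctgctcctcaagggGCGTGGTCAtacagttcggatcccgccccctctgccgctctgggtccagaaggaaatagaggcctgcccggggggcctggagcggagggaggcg

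Promoters were found for 9 of the 10 genes. In the 250 bases before the start, the HNF1-type motif matched in 7 of the 8 transferase promoters and in 56 of 32851 promoters of the whole table, or 0.17%. In Ugt2b38, Ugt2b36, Ugt2b5, Ugt2b35, Ugt2b34 and Ugt2b1 the match began 64, 64, 61, 70, 73 and 89 bases before the start, and in Ugt3a1 130 bases before it. The Ugt2a3 window held no exact match. Neither did the Ugdh window, but that window held 2 matches to the antioxidant core, beginning 132 and 94 bases before the start, and the second of them lies on the opposite strand. The antioxidant core was in 10.2% of all promoters and in 0 of the 8 transferase promoters. AGGTCA repeated after 1 base, the direct repeat that PPAR-alpha binds, matched in 11 of all promoters, or 0.0335%, and in 0 of these 9. The motifs were picked after the windows had been read, and none of the matches overlap another motif's, so these counts describe the windows. The promoters also differed in composition: 69.2% of the Ugdh window was G or C, with 22 CpG pairs, against 30.4% to 44.0% and at most 2 CpG pairs in the transferases.

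Over the 250 bases before the start, Ugt2b38 and Ugt2b5 had the most alike sequences of any pair, with 212 of 260 aligned positions identical (81.5%). The next most alike pair was Ugt2b36 and Ugt2b38 at 60.4%, and Ugt2b5 and Ugt2b36 followed at 60.2%. These were not far above Ugt2b38 with Ugt2b35 (58.9%) or with Ugt3a1 on chromosome 15 (52.3%). Over the last 110 bases alone, Ugt2b36 and Ugt2b38 came first at 76.4% (84 of 110), ahead of Ugt2b5 and Ugt2b38 (90 of 120). Of these 3 genes, Ugt2b38 alone passed the test for a change with the diet, as given further on.

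The deposited values are MAS5 signals, a linear brightness per probe set. The arrays differed in level: the 2% trimmed mean of the signals, a mean without the extreme values, was 39.6 to 53.1 on the chow arrays and 45.6 to 60.7 on the ketogenic arrays, with the diets overlapping, while the hybridization controls were 633.2 to 650.3 on chow and 478.3 to 511.2 on ketogenic arrays. The median log2 change of all 22515 probe sets tested was 0.221 as deposited. Scaling each array to a common median, a common trimmed mean, equal quantiles or the hybridization controls moved it to 0.109, 0.007, -0.012 and 0.583. In limma, adjusted over all 22515, 1045 probe sets or 4.64% passed an adjusted p of 0.05, 918 higher (4.08%) and 127 lower (0.564%) on the ketogenic diet. With the 4 other scalings, in the order above, 77.4%, 65.9%, 64.6% and 97.5% of the calls were higher, against 87.9% as deposited. The precision is limited by the number of arrays.

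All 12 probe sets of the 10 genes passed the filter on dim signals. In this fit 1 of the 12 was lower at an adjusted p under 0.05, that of Ugt2b38, and 0 were higher in limma, against 0.564% and 4.08% of all probe sets. At an unadjusted p under 0.05 there were 5, of which 2 were higher (Ugdh and 1 probe set of Ugt2b34) and 3 lower (Ugt2b38, Ugt2a3 and Ugt2b1), against 16.2% higher and 3.86% lower among all probe sets. The same 5 probe sets were those whose chow and ketogenic arrays did not overlap. Among all probe sets 26.7% did not overlap, 21.6% higher and 5.06% lower, so the 2 higher ones are near the share of the whole table. The median log2 change of the 12 was -0.044, against 0.221 for all probe sets. The diets overlapped for the other 7 probe sets, all of them of transferase genes. In bulk liver RNA, fewer cells of a type and less RNA per cell cannot be told apart.

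**Figure D1:**
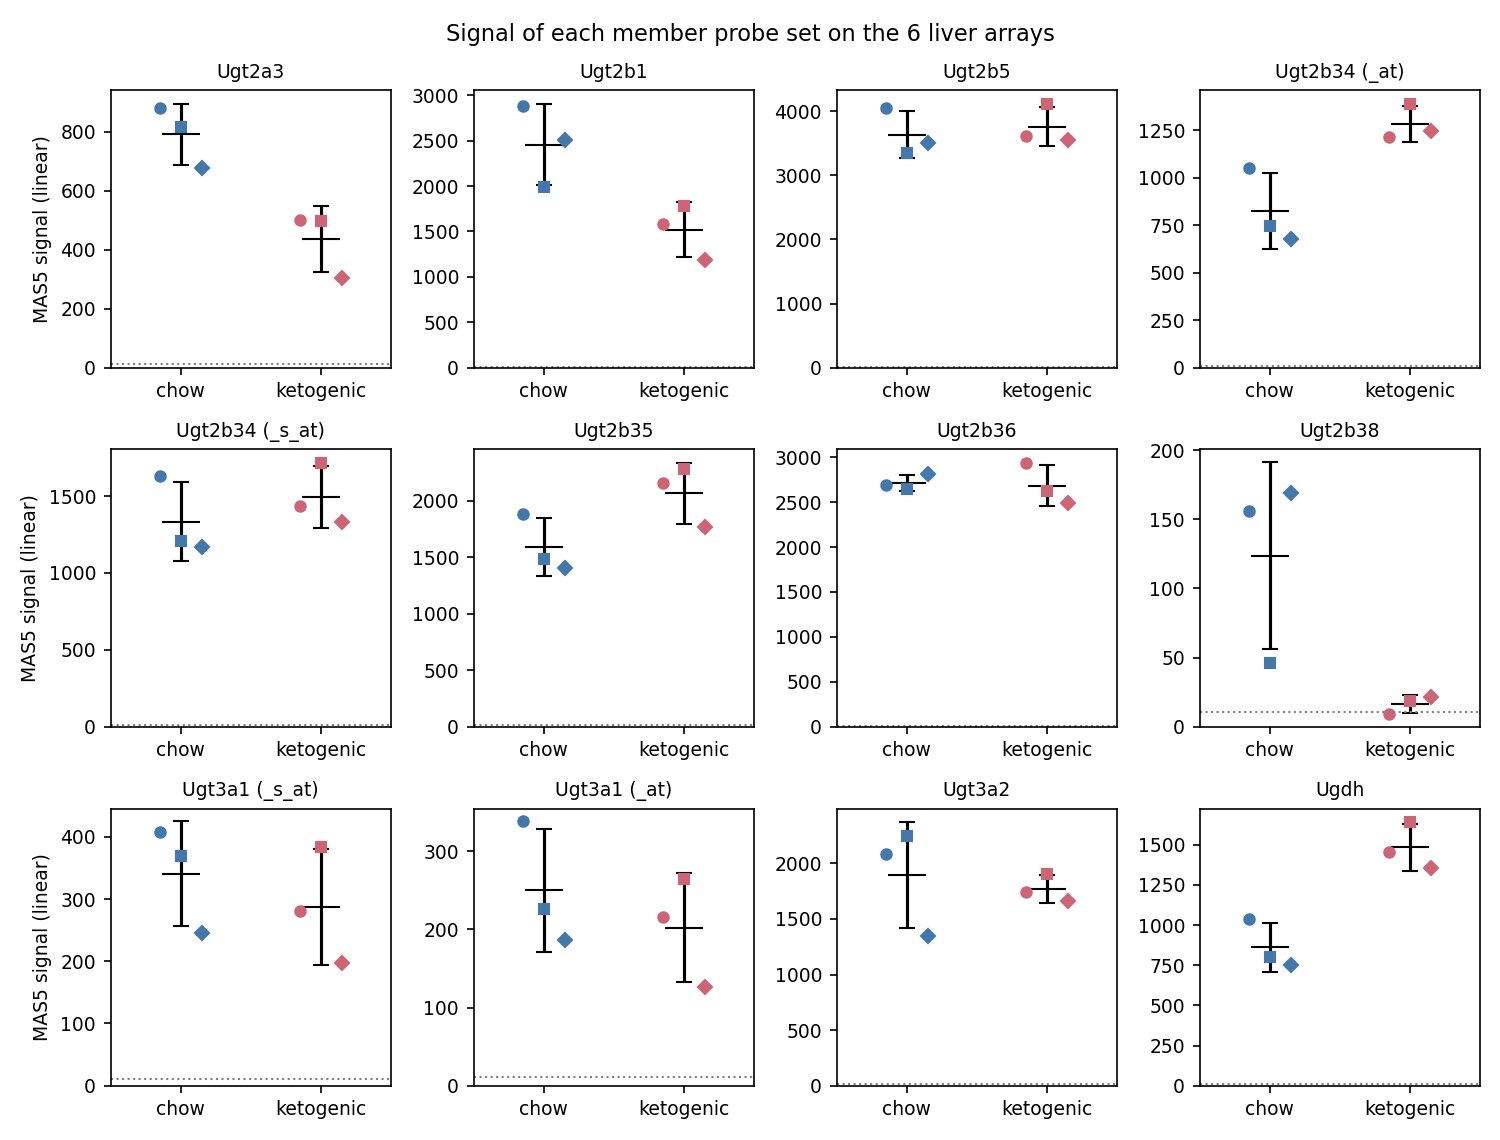
MAS5 signal (linear axis from 0) of each of the 12 probe sets on the 3 chow (blue) and 3 ketogenic (red) arrays, with circles, squares and diamonds for arrays 1, 2 and 3, bars for the mean ± SD and a dotted line at the background of 10.8. The diets do not overlap for Ugt2a3, Ugt2b1, Ugt2b38, Ugdh and the probe set of Ugt2b34 with the suffix _at, and each panel has its own scale.

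Ugt2b38, which follows Ugt2a3 in the run on chromosome 5, fell with the ketogenic diet. On chow arrays 1, 2 and 3 it read 156.1, 45.8 and 168.9, and on the ketogenic arrays 9.2, 18.2 and 21.6 in the same order. Chow array 2 was the lowest of its group and still lay above every ketogenic array, so the diets did not overlap. The mean went from 123.6 ± 67.7 to 16.3 ± 6.41 (SD, n = 3), a ratio of 7.57. The log2 change was -2.79 ± 0.54 (SE), with a 95% interval from -4.01 to -1.58 and an adjusted p of 0.0248 in limma, and it ranked 18 among the 22515 probe sets counted from the lowest change. The ketogenic signals were close to the background of 10.8, a level set by probe sets for bacterial RNA that was not in the liver, and ketogenic array 1 was under it. The own background levels of ketogenic arrays 1, 2 and 3 were 11.6, 9.85 and 7.29. With signals raised to the background of 10.8 the log2 change was -2.72, and with 16 added to each signal it was -1.97. The call was kept under each of the 4 other scalings, where the change ran from -3.01 to -2.43 with adjusted p between 0.0233 and 0.0472. The call did not survive leaving out chow array 1 or 3 or ketogenic array 1, 2 or 3, with log2 changes of -2.52, -2.46, -2.42, -2.92 and -3.04 and adjusted p of 0.062, 0.0614, 0.0546, 0.0582 and 0.0695, while without chow array 2 the change was -3.40 with an adjusted p of 0.00395. With no filter on dim probe sets the adjusted p was 0.156.

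The genes whose signals over the 6 arrays ran most like those of Ugt2b38 were sought among the 634 other genes called, by the root mean square difference of log2 signals after centring each gene on its own mean. The closest was Serpina4-ps1, at 0.516, whose signal was 108, 77 and 226.7 on chow and 18.5, 24.4 and 19.9 on ketogenic arrays. Adcy5, an adenylate cyclase, followed at 0.677 and the carboxylesterase Ces2a at 0.68. Tyrp1, known from pigment synthesis, and Acss2, which activates acetate, both stood at 0.696. In all 5 genes, as in Ugt2b38, chow array 2 was the lowest of the chow arrays, which a choice by likeness over the 6 arrays favours. Serpina4-ps1 and Adcy5 were read from probe sets with the suffix _x_at, which marks probes that can bind several transcripts. The ketogenic signals of Tyrp1 (9, 9.5 and 8) were all under the background of 10.8, though array 3 lay above its own level of 7.29. The size of the Tyrp1 change is uncertain. The measure puts genes of like size of change first, so these names describe the shape and size of 1 profile.

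Next to Ugt2a3 and Ugt2b5 lies Ugt2b37, a further family 2 gene that was on a list of other transferases. Its signal was 16.6, 16.2 and 22.9 on chow and 3.5, 8.4 and 9.7 on ketogenic arrays, all 3 of the latter under the background of 10.8. Ketogenic array 3 lay above its own background level of 7.29. The chow arrays' own levels were 11.4 to 12.9, not far under the chow signals. With the ketogenic side only a bound, Ugt2b37 was at least 1.70-fold lower on that side, and the probe set did not pass the test (adjusted p = 0.0785 in limma).

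Ugt2a3, whose human counterpart acts on bile acids, gave a signal of 881.6, 816.1 and 676.6 on chow and of 501.3, 498.7 and 305.9 on ketogenic arrays. All ketogenic values lay under all chow values, and ketogenic array 3 was the lowest. Means were 791.4 ± 104.7 and 435.3 ± 112.1 (SD, n = 3). The log2 change was -0.89 ± 0.29 (SE), with a 95% interval from -1.54 to -0.24 and an adjusted p of 0.127, so it did not pass the threshold in limma. A part of the spread went with array level: after scaling to a common trimmed mean the chow signals were 828.5, 886.3 and 853.0 and the ketogenic ones 458.2, 410.4 and 335.2. That scaling gave a log2 change of -1.10 (adjusted p = 0.0255), and with a common array median and with quantiles the changes were -1.002 and -1.02 (adjusted p = 0.0343 and 0.0321). Scaled to the hybridization controls it was -0.53 with an adjusted p of 0.151.

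Ugt2b1, a steroid- and drug-conjugating Ugt2b enzyme, gave 2883.4, 1986.2 and 2503.4 on chow and 1586.6, 1782.1 and 1185.2 on ketogenic arrays. The groups did not overlap, and the closest values were those of array 2 in each diet. Means were 2458 ± 450.3 and 1518 ± 304.3 (SD, n = 3). This is a log2 change of -0.70 ± 0.28 (SE), with a 95% interval from -1.33 to -0.07 and an adjusted p of 0.204 in limma. It passed with a common array median (-0.81, adjusted p = 0.0491), after trimmed mean scaling (-0.91, 0.0471) and with a trended robust prior (-0.70, 0.0367), and not with quantiles (-0.69, 0.0882) or hybridization controls (-0.34, 0.32).

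As deposited, none of the other 4 Ugt2b genes passed the test in limma. The 2 probe sets of Ugt2b34 differed. The probe set with the suffix _at gave 1051.2, 744.8 and 676.3 on chow and 1212.9, 1389.4 and 1243.3 on ketogenic arrays, with no overlap, and a log2 change of 0.66 ± 0.26 (SE, adjusted p = 0.208 in limma). The brighter one has the suffix _s_at, which marks probes that can bind several transcripts. It gave 1629.7, 1207 and 1166.7 on chow and 1433.7, 1717.8 and 1331.8 on ketogenic arrays, with overlap, and a log2 change of 0.17 ± 0.26 (SE, adjusted p = 0.749). Its sign turned to -0.04 with a common trimmed mean. The first probe set passed the threshold with hybridization control scaling (1.02, adjusted p = 0.0269) and under no other alternative run. Which transcripts the second one bound was not tested.

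Ugt2b35 gave 1880.8, 1482.2 and 1406.8 on chow and 2157.4, 2283.2 and 1764.7 on ketogenic arrays. Only chow array 1 reached into the ketogenic range. Scaled to a common trimmed mean the diets did not overlap, at 1609.6 to 1773.6 on chow and 1878.8 to 1971.9 on ketogenic arrays. Ugt2b35 changed by 0.38 ± 0.25 (log2, SE), with a 95% interval from -0.20 to 0.96 and an adjusted p of 0.439 in limma. It was positive under all 19 alternatives run and past the threshold under 0 of them, with adjusted p from 0.0509 to 0.712.

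Ugt2b5, whose 250 upstream bases are the closest to those of Ugt2b38, gave 4043.7, 3353.2 and 3508.7 on chow and 3615.5, 4118.6 and 3551.1 on ketogenic arrays. The 2 groups lay within the same range, with means of 3635 ± 362.2 and 3762 ± 310.7 (SD, n = 3). Ugt2b5 changed by 0.05 ± 0.24 (log2, SE), with a 95% interval from -0.49 to 0.59 and an adjusted p of 0.924 in limma. Its sign depended on the scaling, from -0.16 with a common trimmed mean to 0.41 with hybridization controls.

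Ugt2b36 gave 2686.8, 2647.4 and 2812 on chow and 2940.3, 2621.8 and 2490.2 on ketogenic arrays, and the highest and the lowest value were both ketogenic. Means were 2715 ± 86.0 and 2684 ± 231.4 (SD, n = 3). The fitted change was -0.02 ± 0.23 (log2, SE), with a 95% interval from -0.55 to 0.51 and an adjusted p of 0.97 in limma, and over the scalings it ran from -0.23 to 0.34. For both Ugt2b5 and Ugt2b36 the interval leaves room for a change of about 0.5 on the log2 scale either way.

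A ratio of 2 probe sets on the same array does not change when the whole array is multiplied by a common factor, though quantile scaling can change it. The log2 ratio of Ugt2b38 to Ugt2b5 was lower on the ketogenic than on the chow arrays, so that Ugt2b5 minus Ugt2b38 differed by 2.85 and Ugt2b36 minus Ugt2b38 by 2.77. Neither ratio overlapped between the diets, with an exact permutation p of 0.1, the smallest that 3 against 3 arrays allow (two-sided). The ratio of Ugt2b38 was lower without overlap against 7 of the 8 other transferase genes and higher against 0, compared with 91.7% and 0.0133% of all other probe sets. The exception was Ugt2a3, against which the ratio overlapped between the diets. Ugt2a3 and Ugt2b1 did not separate from each other (mean difference -0.19, exact permutation p = 0.5), while the ratios of both to Ugt2b5 were lower on ketogenic arrays without overlap, with differences of -0.94 and -0.75 (exact permutation p = 0.1 each). In all, with brightest probe sets Ugt2a3 was lower without overlap against 6 of the 8 and higher against 0, where 78.7% and 0.497% of all probe sets gave that. Ugt2b1 was lower against 4 and higher against 1, Ugt2b38, where 68.9% and 0.688% did.

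**Figure D2:**
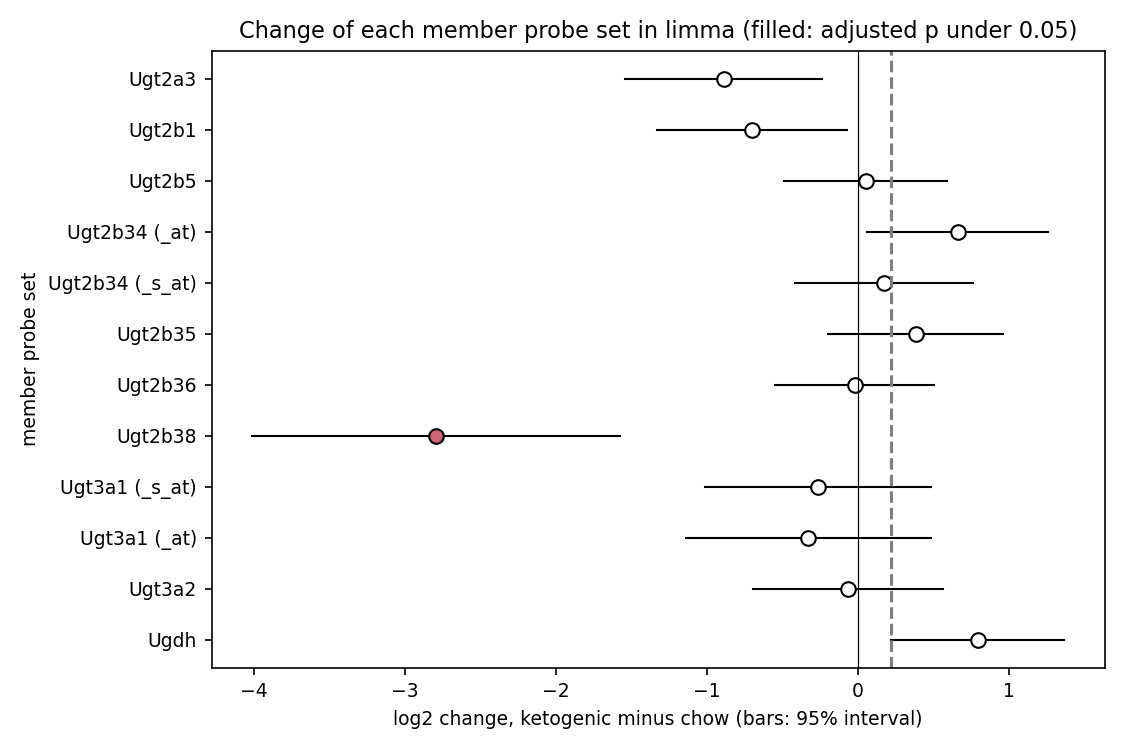
Log2 change, ketogenic minus chow, of each of the 12 probe sets, with its 95% interval from limma. The dashed line is the median of all probe sets at 0.221, and only the filled point, Ugt2b38 at -2.79, had an adjusted p under 0.05.

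The family 3 genes showed no change past the threshold. The 2 probe sets of Ugt3a1 put the 6 arrays in the same order. The _s_at probe set gave 407.2, 368.7 and 245.7 on chow and 281, 383.1 and 197.6 on ketogenic arrays, and the other gave 338.4, 225.8 and 186.8 on chow and 215.9, 264.2 and 126.3 on ketogenic arrays. On both, chow array 1 was the highest and ketogenic array 3 the lowest, with overlap between the diets. The log2 changes were -0.27 ± 0.33 and -0.33 ± 0.36 (SE), with adjusted p of 0.69 and 0.643 in limma. With hybridization control scaling they became 0.10 and 0.03. With a common trimmed mean they were -0.48 and -0.54 (adjusted p = 0.216 and 0.219 in limma), and the diets no longer overlapped on the second probe set.

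Ugt3a2 gave 2086.9, 2250.6 and 1350.6 on chow and 1746.8, 1904.7 and 1659.5 on ketogenic arrays. The chow arrays spread over a wider range, 1350.6 to 2250.6, that enclosed all ketogenic values. Means were 1896 ± 479.4 and 1770 ± 124.3 (SD, n = 3), and the log2 change was -0.07 ± 0.28 (SE), with a 95% interval from -0.70 to 0.56 and an adjusted p of 0.913 in limma. Its sign turned with hybridization control scaling (0.295).

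Ugdh, the enzyme that supplies UDP-glucuronic acid, gave 1035, 798.5 and 751.6 on chow and 1454.3, 1644.6 and 1353.4 on ketogenic arrays. The lowest ketogenic array lay above the highest chow array. Means were 861.7 ± 151.9 and 1484 ± 147.9 (SD, n = 3), a ratio of 1.72. The log2 change was 0.79 ± 0.25 (SE), with a 95% interval from 0.22 to 1.37. The adjusted p was 0.121 in limma, so the gene did not pass as deposited. Scaled to a common trimmed mean the signals were 972.7, 867.2 and 947.5 on chow and 1329.2, 1353.3 and 1483.1 on ketogenic arrays, with a log2 change of 0.58 and an adjusted p of 0.0738. It passed with a common array median (0.68, adjusted p = 0.0496), with quantiles (0.75, 0.0456) and with hybridization controls (1.16, 0.0152), and under 7 of all 19 alternatives run.

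Ratios of Ugdh to the transferases on the same array depended on the probe set for Ugt2b34. Against each of the 9 transferase genes, represented by its brightest probe set, the ratio of Ugdh was higher on all 3 ketogenic arrays than on any chow array. Against the _at probe set of Ugt2b34 the diets overlapped, with a mean difference of the log2 ratio of 0.13 (exact permutation p = 0.2), in place of 0.62 against its _s_at probe set. For the other genes the difference was 0.41 against Ugt2b35, 0.74 against Ugt2b5, 1.49 against Ugt2b1, 1.68 against Ugt2a3 and 3.59 against Ugt2b38. Each of the 9 comparisons with brightest probe sets had an exact permutation p of 0.1, the smallest possible, and the 9 share the Ugdh signal. Against all other probe sets, Ugdh was higher in this way over 53.2% of them and lower over 3.93%.

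**Figure D3:**
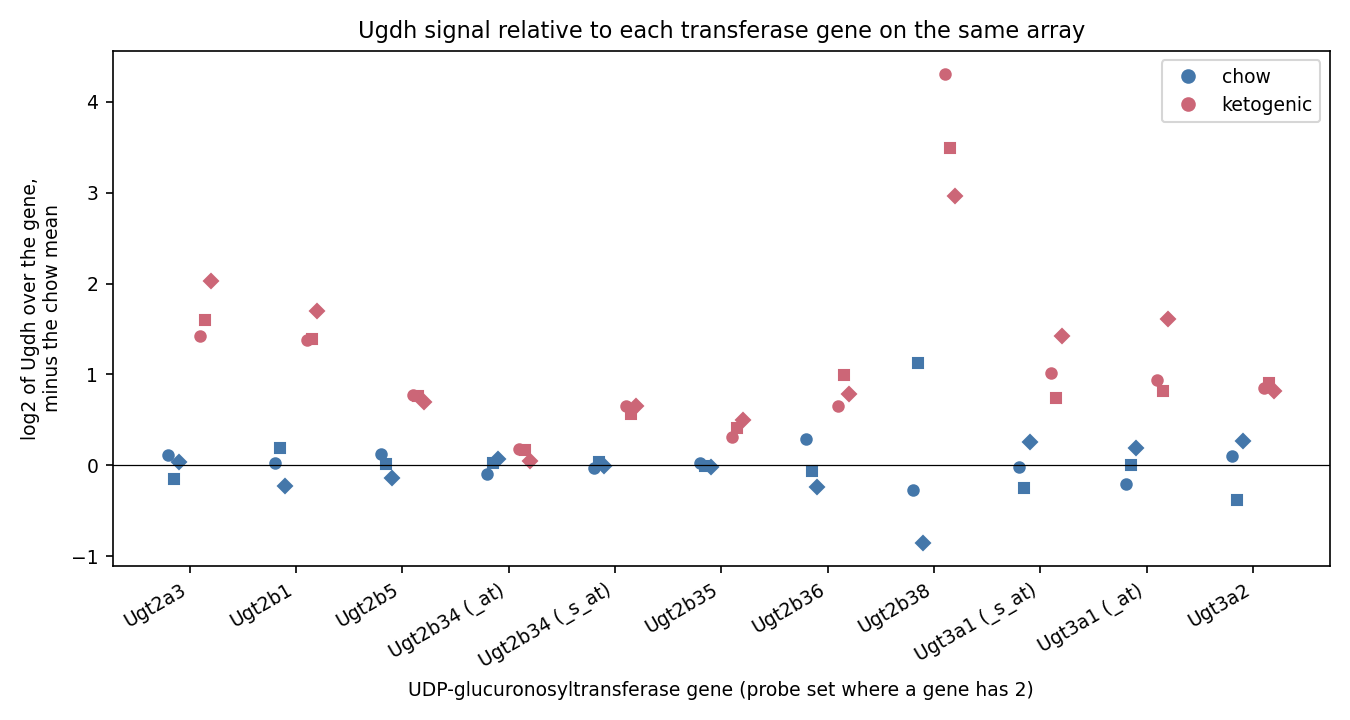
Log2 ratio of the Ugdh signal to that of each transferase probe set on the same array, minus its mean over the chow arrays, for the 3 chow (blue) and 3 ketogenic (red) arrays, with circles, squares and diamonds for arrays 1, 2 and 3. The diets overlap for the _at probe set of Ugt2b34, where the lowest ketogenic point (0.05) is under the highest chow point (0.08), and for no other probe set shown.

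**Figure D4:**
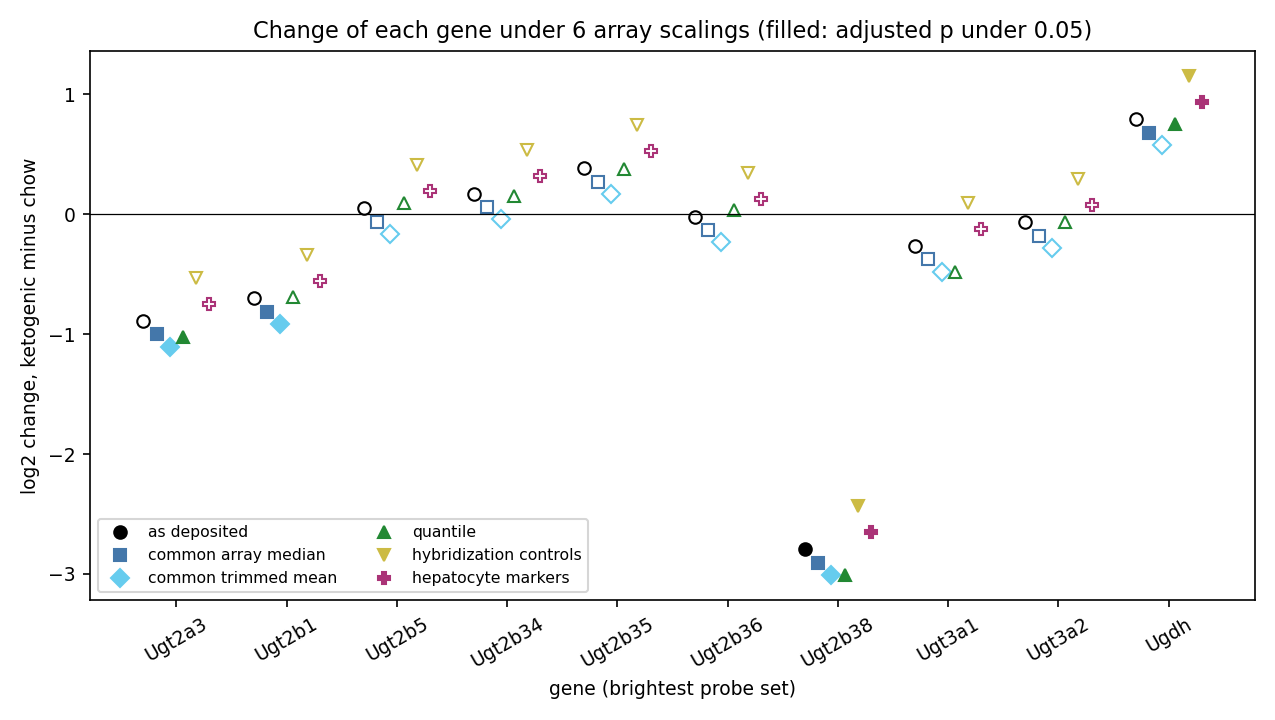
Log2 change, ketogenic minus chow, of each gene's brightest probe set as deposited and under 5 other array scalings, filled where the adjusted p in limma was under 0.05. Ugt2b38 stays low and past the threshold in all 6, Ugt2a3 and Ugt2b1 stay below 0 and Ugdh above 0 with calls in some, and Ugt2b5, Ugt2b34, Ugt2b36, Ugt3a1 and Ugt3a2 cross 0.

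The family 1 transferases are made from 1 locus by joining different first exons to shared ones, and 3 probe sets were annotated to 8 of their symbols at once, so none is named for a single gene. Their signals were 2198 ± 200.6, 4173 ± 429.4 and 2410 ± 579.4 on chow and 2339 ± 414.2, 4310 ± 573.8 and 3026 ± 517.6 on ketogenic arrays (SD, n = 3). Their log2 changes were 0.08, 0.04 and 0.34, with adjusted p of 0.891, 0.939 and 0.541 in limma. Of the list of other single-symbol transferases, only Ugt2b37 was bright enough to be tested.

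Of 12 tested genes that supply, move or use UDP-sugars around Ugdh, 2 rose and 0 fell in limma, against 4.74% and 0.615% (5.35% in all) of the 11866 genes taken by their brightest probe set, and the list's median log2 change was 0.504 against 0.235 for all genes. Pgm2, a phosphoglucomutase-family enzyme, rose by 1.22 on the log2 scale from a dim 14.4 ± 3.26 to 33.4 ± 6.39 (SD, n = 3). The brighter Pgm1 of that family, with means of 431.7 on chow and 425.6 on ketogenic arrays, changed by -0.03 (adjusted p = 0.965 in limma). Entpd5, a nucleoside diphosphatase of the endoplasmic reticulum, rose by 1.21, from 680.7 ± 138.8 to 1567 ± 282.7 (SD, n = 3). Both calls were close to the threshold (adjusted p = 0.0441 and 0.0438). That of Pgm2 was lost without chow array 1 or 2 or any 1 ketogenic array and with a common array median, trimmed mean or quantiles, and that of Entpd5 without chow array 2 or 3 or any 1 ketogenic array, with adjusted p up to 0.133 for each, and over the scalings 1 to 4 genes of the list rose. Ugp2, which makes UDP-glucose, the substrate of Ugdh, had a log2 change of 0.46 ± 0.28 (SE, adjusted p = 0.404). Slc35d1, which carries UDP-glucuronic acid into the endoplasmic reticulum, changed by 0.61 ± 0.25 (SE) and Gusb, the lysosomal enzyme that removes glucuronic acid, by 0.67 ± 0.25 (SE), neither past the threshold (adjusted p = 0.215 and 0.182).

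Of 7 genes that pass free glucuronic acid on to ascorbate or pentoses, 0 passed in limma as deposited. Over the scalings 0 to 1 were lower and 0 to 1 higher. At an unadjusted p under 0.05, 1 was lower and 1 higher, which 17.7% of all genes passed upward and 3.68% downward. Dcxr went from 615.8 ± 47.5 to 296.4 ± 65.05 (SD, n = 3) without overlap (adjusted p = 0.0581 in limma). Akr1a1, which reduces glucuronate, was the brightest of the 7, at 3952 ± 459.2 on chow and 4453 ± 524.4 on ketogenic arrays (SD, n = 3). Of 7 genes for efflux of conjugates, 2 rose and 0 fell, against 4.74% and 0.615% of all genes. Abcc4, a pump of the sinusoidal membrane for glucuronides and sulfates, rose by 2.55 ± 0.26 (log2, SE) from 12.2 ± 0.751 to 72.5 ± 16.2 (SD, n = 3, adjusted p = 0.00211). Its chow signals lay at those arrays' own background levels of 11.4 to 12.9, so the size of the change is uncertain. It passed under all 17 alternatives run that kept it. Abcc1, a related pump, read 5.5, 4.1 and 13.3 on chow, with 2 arrays under the background, and rose at least 2.68-fold. Abcc1 passed the filter on dim signals only through its ketogenic arrays, so it could be called only as higher. It no longer passed without chow array 1 or any 1 ketogenic array (adjusted p up to 0.0843), with 3 of the scalings and with no filter. Abcc2, the canalicular pump, and Abcc3, its sinusoidal relative, changed by 0.29 and 0.41 and did not pass (adjusted p = 0.651 and 0.417).

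Other conjugating enzymes were counted in the same way. Of 7 tested sulfotransferases and makers of their sulfate donor, 1 fell and 0 rose, against 0.615% and 4.74% of all genes. Sult5a1 fell from 113.4 ± 27.5 to 41.7 ± 12.2 (SD, n = 3). That call, with an adjusted p of 0.0384, did not hold without any 1 of the 6 arrays (0.0504 to 0.106). The list's median log2 change was -0.901, against 0.235 for all genes. Of 9 methyl-, acetyl- and acyl-conjugating enzymes 0 passed in limma as deposited, and over the scalings 0 to 2 were lower. At an unadjusted p under 0.05, 2 were lower, against 3.68% of all genes. Inmt went from 2398 ± 763.3 to 859.6 ± 360.5 and Tpmt from 194.6 ± 30.6 to 101.6 ± 28.75 (SD, n = 3). Both did so without overlap (adjusted p = 0.0605 and 0.111 in limma). The brightest, Glyat, which joins acids to glycine, changed by 0.15 on the log2 scale. Of 17 transcription factors known to act on transferase genes 0 passed. At an unadjusted p under 0.05, 1 was higher and 0 lower, against 17.7% and 3.68% of all genes. The brightest, Cebpa, changed by -0.06. Hnf4a, the hepatocyte nuclear receptor, changed by -0.004, and Nfe2l2, which encodes NRF2, by 0.83 ± 0.25 (SE, adjusted p = 0.101), from 286.6 ± 39.0 to 507.6 ± 53.1 (SD, n = 3) without overlap.

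Several mouse transferase genes are known to differ between the sexes, so lists of sex-biased liver genes without transferases were counted beside them. Of 15 male-biased genes 7 fell and 0 rose as deposited, 4 to 7 when any 1 array was left out and 7 or 8 over the scalings, and all 15 had a negative log2 change. With no filter 1 of the 15 passed as lower, and with 16 added to each signal 13 did. Hsd3b5, a male-specific steroid dehydrogenase, fell at least 81.1-fold. Susd4 and the organic anion carrier Slco1a1 had log2 changes of -2.83 and -2.07. The call of Susd4 was lost without ketogenic array 3 (adjusted p = 0.0594). Of 8 female-biased genes 2 rose and 0 fell, Cyp2b9 by 5.72 on the log2 scale (5.38 with signals raised to the background, since its chow signals of 17.4, 14.7 and 5.4 lay near or under it) and Cyp2b13 at least 5.998-fold. Of the 8, 7 had a positive log2 change and 1, Cyp17a1, a negative one (-1.98, adjusted p = 0.311 in limma). Cyp2b13 passed the filter on dim signals only through its ketogenic arrays, and Hsd3b5 only through its chow arrays. Each could be called only in that direction. Among all genes, taken by their brightest probe set, 4.74% rose and 0.615% fell. How these lists relate to Ugt2b38, Ugt2a3 and Ugt2b1 was not tested.

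Markers of hepatocytes, which carry most transferase RNA in liver, were present on all arrays. Of 15 hepatocyte markers 0 passed in limma as deposited. At an unadjusted p under 0.05, 1 was lower, against 3.68% of all genes. Of the 15, 12 had a negative log2 change, and their summed signal was 93680 to 100300 on chow and 78960 to 90740 on ketogenic arrays. Some markers of other cells moved with the diet, where 4.74% of all genes rose and 0.615% fell. Of 14 tested macrophage markers 11 rose, with a summed signal of 1414 to 1727 on chow and 4956 to 7350 on ketogenic arrays, and of 11 of stellate cells and matrix 6 rose, with sums of 1337 to 1738 and 3677 to 5194. Of 10 endothelial, 4 cholangiocyte and 5 lymphocyte markers 1 each rose, with sums of 754.9 to 1153, 72.0 to 113.9 and 98.7 to 149.5 on chow and of 1309 to 1713, 199.4 to 315.8 and 229 to 294.3 on ketogenic arrays. The cholangiocyte and lymphocyte sums rest largely on 1 gene each. These were Cd24a, with means of 20.4 on chow and 150.2 on ketogenic arrays, and Ptprc, with 24.3 and 114.1. The other tested markers of both lists were not called, so a rise of these cell types is not shown. With 1 array left out, 8 to 11 macrophage and 3 to 5 stellate markers rose, and over the scalings 11 to 12 and 2 to 9 did. With no filter on dim probe sets 4 macrophage and 0 stellate markers passed. Of the called markers, Gpnmb (macrophage) and Col1a1 (stellate) passed the filter only through their ketogenic arrays, so each could be called only as higher. None of the markers on these lists was at 0 on any array. With each array scaled to its hepatocyte markers, an alternative added after the data had been seen, the log2 changes were -2.65 for Ugt2b38 (adjusted p = 0.0366), -0.74 for Ugt2a3 (0.0681), -0.55 for Ugt2b1 (0.149) and 0.94 for Ugdh (0.0297). The part of cell composition in these values was not tested otherwise.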

How the data were processed

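Liver RNA of 3 chow and 3 ketogenic samples was measured on 1-colour arrays. The authors deposited 1 linear intensity for each probe set. GCOS and MAS5 made these values, per the submitters' processing notes (versions, scaling target and genome build: not given in the sources used here). There were 45101 probe sets, 64 of them controls. Symbols came from the platform annotation (34958 probe sets with 1 symbol, 932 with several, 9211 not listed). Replicate numbers follow deposition order and pair no samples.

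Signals were raised to 1.1, the 10th percentile of the table, and log2-transformed. Probe sets with a mean log2 of at least the median of 3.35 were kept, 22515 without controls. Diets were compared in 1 fit with lmFit and eBayes of limma 3.58.1 (R 4.3.3; 4 residual and 4.68 prior degrees of freedom), two-sided, with Benjamini-Hochberg adjustment over all of them and a threshold of 0.05. The background of 10.8 averages, on the log2 scale, each array's 95th percentile of the 27 probe sets for bacterial genes. That percentile was 11.4 to 12.9 on chow and 7.29 to 11.6 on ketogenic arrays. Where 1 diet's mean log2 lay under it, a fold is given as at least the smaller ratio of means after raising signals to it, which does not cover the spread between arrays. The fit was tested on simulated data. Promoters were aligned with Biopython 1.88.

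Named genes were the 10 members, up to 3 called genes of each list with the largest change or its brightest gene where none was called, and 5 genes like the member that changed most. Pgm1, Ugp2, Slc35d1, Gusb, Abcc2, Abcc3, Hnf4a and Nfe2l2 were added after their values were seen, for their known roles. Dcxr, Inmt, Tpmt and Cyp17a1 were added for their values. The members and lists were chosen with earlier results of these data known. The alternatives were 4 scalings, an added constant of 16, a floor at the background, 2 filters, another prior, 3 choices of probe sets, leaving out each array and, added later, hepatocyte scaling.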

Additional observations from a re-analysis of the deposited data

How the results depend on the processing

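The counts of the 12 probe sets called were small and depended on the settings. As deposited 0 were higher and 1 lower. Lower calls numbered 3 with a common trimmed mean, a common array median and a trended robust prior, 2 with quantile normalization and with log2 of the signal plus 16, and 0 with no filter. Higher calls numbered 1 with a common array median, quantile normalization, log2 of the signal plus 16, the 75th percentile filter, a trended robust prior and hepatocyte marker scaling, and 2 with hybridization control scaling. With 1 array left out, 0 to 1 were lower and 0 were higher. With no filter 45037 probe sets entered the adjustment in place of 22515. Over the whole array 178 probe sets passed with no filter and 310 to 1037 with 1 array left out, against 1045, while 2269 passed with log2 of the signal plus 16, 1942 with the floor at the background, 1872 with a trended robust prior, 2435 with hepatocyte marker scaling, 5123 with hybridization control scaling and 622 of 16138 once multi-transcript probe sets were removed.

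The signs of Ugt2b38, Ugt2a3, Ugt2b1, Ugt2b35 and Ugdh were the same under every alternative run. Ugt2b38 could not be tested with the 75th percentile filter, which it did not pass. The genes near 0 changed sign. Ugt2b5, at 0.05 as deposited, was -0.163 with a common trimmed mean, -0.061 with a common array median and between -0.016 and 0.13 with 1 array left out. Ugt2b34, at 0.17 on its brightest probe set, was -0.042 with a common trimmed mean. Ugt2b36, at -0.02, was 0.038 with quantile normalization, 0.342 with hybridization control scaling, 0.125 with hepatocyte marker scaling and between -0.087 and 0.033 with 1 array left out. Ugt3a1 was 0.097 and 0.033 on its 2 probe sets with hybridization control scaling. Ugt3a2, at -0.07, was 0.295 with hybridization control scaling, 0.078 with hepatocyte marker scaling and between -0.294 and 0.074 with 1 array left out. The cause of these shifts was not tested beyond the scalings themselves. No paired analysis was possible because the replicate numbers only follow accession order, so they match no chow sample to a ketogenic one. Ketogenic signals of Ugt2b38 and Ugt2b37 lay near or under the background, which limits the size of their changes that these arrays can show.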
